A study of Schmidtea mediterranea with 15 samples.

Results

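The 100 most abundant transcript models of the planarian Schmidtea mediterranea were followed over 4 days after gamma irradiation. RPKM is the read number divided by model length and by a scaled library size. The members were the 100 of 26671 models with the highest mean RPKM over the 3 unirradiated libraries. Their levels at 0 h are therefore a description of how they were chosen, and every comparison with 0 h is given without a test. Tests were run only between irradiated groups, whose libraries played no part in the choice. Mean levels at 0 h were 862, 857 and 856 RPKM at ranks 98, 99 and 100, just inside the limit, and 855, 855 and 854 RPKM for the 3 models just outside it.

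All worms came from the CIW4 clonal line, were starved before use, and gave polyA RNA from whole animals. Irradiated worms at 24, 48, 72 and 96 h after 6000 rad and unirradiated worms (0 h, 0 rad) had 3 libraries per time, making 15. The sources used here give neither the number of worms behind a library nor whether libraries of the same time were raised apart, so the p-values here reflect variation among libraries that could be technical in part. Unirradiated worms were taken at 0 h only, so that dose, elapsed time and any handling that goes with them cannot be told apart. In whole-animal RNA, fewer cells of a type and less RNA per cell cannot be told apart either. Because RPKM is a relative measure, it does not show changes in the amount of RNA per worm.

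Planarians keep a large pool of dividing stem cells, the neoblasts, which replace the cells of all tissues and are killed by high doses of ionising radiation, while differentiated cells survive for longer. The most abundant polyA RNAs of an animal usually come from a small set of genes, such as those for ribosomal proteins, translation factors, the cytoskeleton and mitochondrial proteins. Which of the members belong to these groups is not known here, because the files list IDs without gene names. The members are therefore referred to by their rank at 0 h, 1 being the highest, and the tissue named in the labels could not be set against marker genes. Of the members, 4 are also given by ID, those with the largest rises and falls between 24 h and 96 h. Apart from ranks 1 to 5, the members given by rank as examples were picked after their values were seen.

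A single transcript model dominated every library. The model of rank 1, 905 bases long, stood at 129932, 120361 and 124184 RPKM at 0 h. Its values were 110459, 129021 and 124107 RPKM at 24 h, and 112436, 124001 and 124574 RPKM at 48 h. They were 121437, 124156 and 120143 RPKM at 72 h, and 117318, 109383 and 115846 RPKM at 96 h. The libraries at 24, 48 and 72 h overlapped with those at 0 h, whereas all 3 at 96 h lay below all 3 at 0 h, at a mean 0.915 times that at 0 h. Between the irradiated groups its level did not differ beyond the spread of the libraries (limma F test over 24, 48, 72 and 96 h, adjusted p = 0.904), and the log2 difference of 96 h from 24 h was -0.08 (SE 0.12). At 0 h its mean was 11.6 times that of rank 2, about as wide a gap as the 12.5-fold range from rank 2 down to rank 100.

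Below rank 1 the levels formed a slope with few steps. Ranks 2 to 5 averaged 10727 ± 234, 9152 ± 389, 7204 ± 249 and 6427 ± 124 RPKM at 0 h (SD, n = 3), and 71 of the 100 members exceeded 1000 RPKM. The libraries of neighbouring ranks were fully separate without a break down to rank 8. Over the whole list, 21 of the 99 neighbouring pairs were separate and 78 overlapped, so the order of most members is not resolved by 3 libraries. The set itself changed little with the libraries used, sharing 98 or 99 of its models with the set chosen from any pair of 0 h libraries. It depended on the measure, sharing 57 models with the 100 chosen by mean reads, which are not divided by length.

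**Figure D1:**
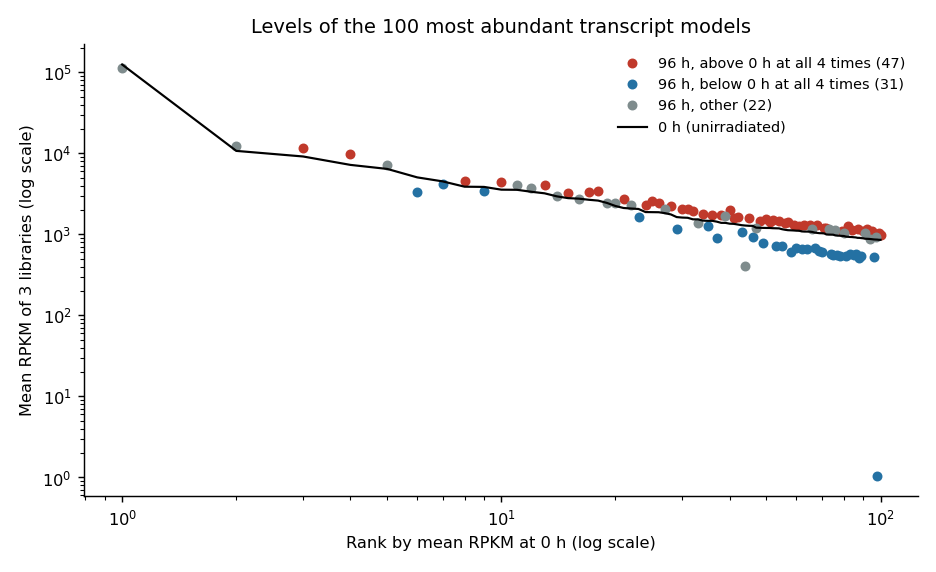
Mean RPKM of the 100 members (y, log scale) against their rank at 0 h (x, log scale), with 96 h as dots coloured by their position against the 0 h libraries and 0 h as a line. Most dots hug the line, the blue dots form a band under it from about rank 37 on, and 1 model of rank 98 drops to 1.06 RPKM.

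The members together held a steady part of the transcriptome. Over 0, 24, 48, 72 and 96 h, in this order, their share of the summed RPKM of a library was 38.1% ± 0.384, 38.1% ± 0.942, 38.4% ± 0.458, 39.4% ± 0.470 and 38.8% ± 0.483 (SD, n = 3). At 72 h all 3 libraries (39.0%, 39.9% and 39.4%) lay above all 3 at 0 h (38.5%, 37.7% and 38.1%), while at 24, 48 and 96 h the libraries overlapped with those at 0 h. As a share of reads, worked out from the deposited values, they took 28.0% ± 0.375 at 96 h and 28.6% ± 0.396 at 0 h, less than their share of RPKM because they are short. Their median length was 780.5 bases, against 1042 over all models, and since RPKM divides by length this difference belongs to the way they were chosen.

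Within this total, the bands of rank differed. Over the same times rank 1 alone took 15.7% ± 0.406, 15.0% ± 0.875, 14.9% ± 0.782, 14.9% ± 0.237 and 14.6% ± 0.410 of the summed RPKM, with overlap between 0 h and every irradiated time except 72 and 96 h. Ranks 2 to 10 took 6.82% ± 0.0665, 7.37% ± 0.144, 7.42% ± 0.128, 7.96% ± 0.293 and 7.75% ± 0.0646, with the libraries of every irradiated group above those at 0 h. Rank 4 alone took 1.53% at 24 h, against 0.903% at 0 h. As a share of reads, ranks 2 to 10 took 5.92%, 5.87%, 5.88%, 6.29% and 6.14%, and their libraries at 24 and 48 h overlapped with those at 0 h. Ranks 11 to 100 took 15.6% ± 0.0567, 15.8% ± 0.115, 16.1% ± 0.310, 16.5% ± 0.374 and 16.5% ± 0.0129. As a share of reads, their libraries at 24, 48 and 72 h overlapped with those at 0 h. The next 100 models went the other way, with 8.82% ± 0.0418, 8.15% ± 0.110, 8.03% ± 0.0727, 7.65% ± 0.0881 and 7.59% ± 0.0388. Rank 1 was lowest within its group in the first library at both 24 h (13.96%) and 48 h (14.03%), and these libraries also gave the lowest totals for the 100 members (37.1% and 37.9%).

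**Figure D2:**
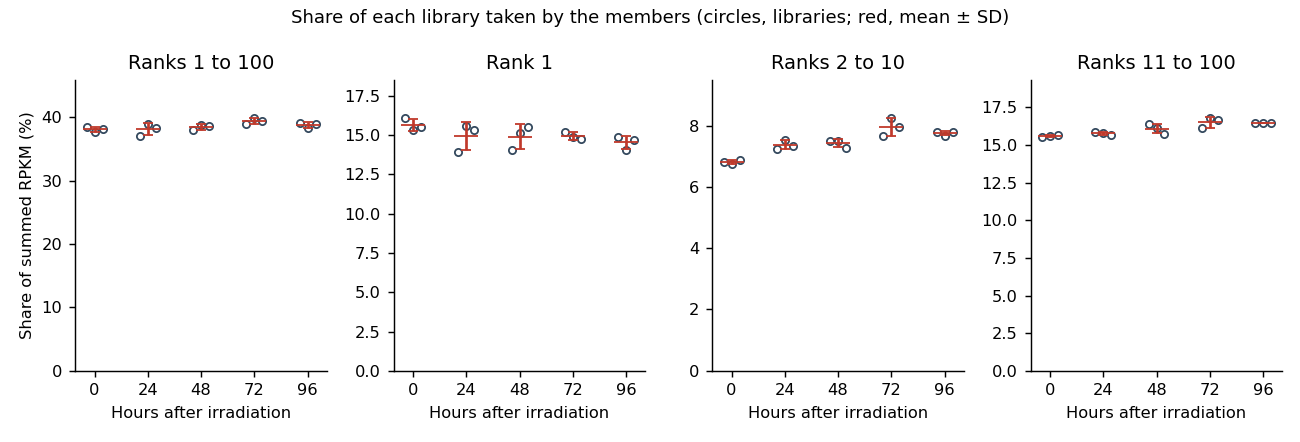
Share of the summed RPKM (y, percent, from 0) at 0, 24, 48, 72 and 96 h (x) for all members and for 3 bands of rank, with circles for libraries and red marks for the mean ± SD of 3. The total stays between 37.1% and 39.9%, while ranks 2 to 10 lie higher in all irradiated libraries than at 0 h.

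Most members left their 0 h range, in both directions and by small amounts. At 24 h, all 3 libraries lay above all 3 at 0 h for 51 members (23.0% of the 21231 models tested) and below them for 38 (24.9% of models). The numbers were 58 above (25.0% of models) and 34 below (22.8%) at 48 h, and 58 above (25.2%) and 32 below (24.0%) at 72 h. At 96 h they were 61 above (28.1%) and 34 below (25.5%). Members had a median of 11901 reads in a 0 h library, against 108 over the models tested, and their libraries varied less, with a median coefficient of variation at 0 h of 1.80% against 8.29%. A small shift is thus more often visible in them, and the counts say nothing of how members compare with other models in size of change. After quantile normalization fewer members lay above 0 h at 24, 48 and 72 h (32, 36 and 38), with 43, 40 and 41 below.

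By size, the members below 0 h lay further from it than those above. At 96 h, 25 members were at least 1.5-fold lower than at 0 h (9.56% of models), and 0 were at least 1.5-fold higher (1.70% of models). At 24 h these numbers were 3 lower (7.63% of models) and 4 higher (2.18%), at 48 h they were 10 lower (7.87%) and 2 higher (1.55%), and at 72 h they were 23 lower (9.31%) and 4 higher (1.80%). Of the next 100 models, 45 were lower by that much at 96 h. The median log2 difference from 0 h over the 100 members was 0.08, 0.14, 0.22 and 0.19 at 24, 48, 72 and 96 h, against -0.01, 0.03, 0.02 and 0.04 over all models tested and -0.22, -0.12, -0.24 and -0.32 in the next 100 models. A 2-fold difference was rare. At 24 h, rank 40 was higher (0.203% of models) and rank 98 lower (2.40%) by at least that much. At 48 and 72 h, 0 members were that much higher (0.122% and 0.108% of models) and 1, rank 98, was that much lower (2.60% and 2.97%). At 96 h, 0 were higher (0.0659%) and 2 lower (3.30%), the models of ranks 44 and 98.

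Sorted by position against 0 h, 47 members lay above it at all 4 irradiated times, 31 lay below it at all 4 and 22 did neither. The numbers were 48, 32 and 20 when each value was taken as a share of the summed RPKM of its library, and 25, 36 and 39 after quantile normalization. Quantile normalization gives the highest values of all libraries the same spacing, and 25 of the 47 and 30 of the 31 members kept their side under it. The same sorting was not done over all models tested, so the numbers do not show how members compare with other models. At single times, 23.0% to 28.1% of models lay above 0 h and 22.8% to 25.5% below it.

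**Figure D3:**
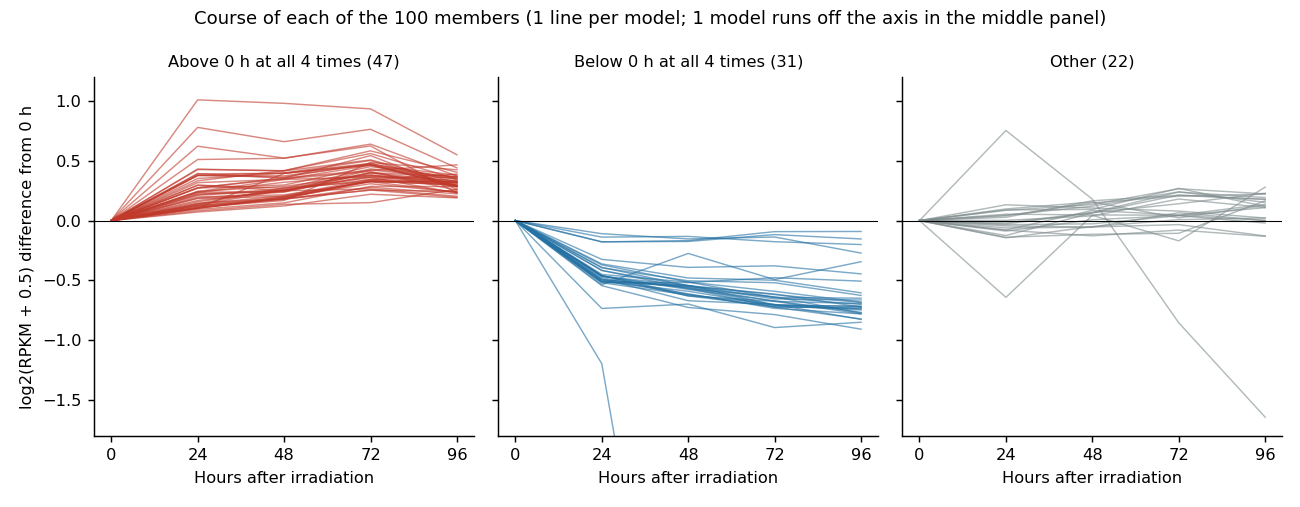
Difference of each member from its mean at 0 h (y, log2 scale) by hours after irradiation (x), 1 line per model, split by position against the 0 h libraries. The 31 models below 0 h lie mostly along a narrow track, and the model of rank 98 leaves the axis after 24 h.

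The 31 members below 0 h at all times differed among themselves in their later course. Their median log2 differences from 0 h were -0.46, -0.55, -0.66 and -0.72 over the 4 times. A compact track stood out among them. When the members were sorted by their difference at 96 h, 23 lay between -0.6 and -1.0, only 1 between -0.6 and -0.5, and few between there and 0. This band was drawn after its values were seen and gets no test. Its 23 models had medians of -0.46, -0.57, -0.68 and -0.73 at 24, 48, 72 and 96 h, and the standard deviation between models at each time was 0.08, 0.06, 0.08 and 0.07. The limits of the band bound the spread at 96 h. The other times are not independent of it, since all are taken against the same 0 h libraries. They were spread from rank 6 to rank 96 (5053 to 866 RPKM at 0 h) and from 563 to 1638 bases in length. The same band held 40 of the next 100 models and 5.81% of all models tested.

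Rank 53 gives the typical course of this band. It stood at 1203, 1173 and 1191 RPKM at 0 h, 812, 813 and 863 at 24 h, 771, 784 and 763 at 48 h, 718, 727 and 747 at 72 h, and 717, 710 and 708 at 96 h. None of its groups overlapped with another, and at 96 h its mean was 1.67-fold lower than at 0 h. Rank 58 lay furthest below 0 h within the band, at 596, 595 and 604 RPKM at 96 h, against 1145, 1116 and 1107 at 0 h. Rank 6, the most abundant, stood at 3367, 3302 and 3303 RPKM at 96 h, against 5041, 4968 and 5150 at 0 h.

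A few abundant models below 0 h did not follow this track. Ranks 7 and 9, at 4511 ± 105 and 3855 ± 43.1 RPKM at 0 h, stood at 4235 ± 32.9 and 3465 ± 15.1 RPKM at 96 h (SD, n = 3), with differences of -0.09 and -0.15. Rank 29 took a single early step, with 1651, 1603 and 1651 RPKM at 0 h, 1126, 1137 and 1161 at 24 h, 1145, 1142 and 1139 at 48 h, 1131, 1209 and 1183 at 72 h, and 1187, 1140 and 1127 at 96 h. Its libraries from 24 to 96 h overlapped with each other and none of the tested contrasts between irradiated times passed for it (limma, 96 h against 24 h adjusted p = 0.823). Rank 23 moved up and down, at 1421 ± 69.3, 1704 ± 84.5, 1466 ± 115 and 1623 ± 24.3 RPKM at 24, 48, 72 and 96 h, against 2059 ± 31.0 at 0 h. The rise at 48 h over 24 h was called (limma adjusted p = 0.00389), as was the fall at 72 h below 48 h (adjusted p = 0.0490). The second of these calls held in only 2 of the 15 fits that left out a library.

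The 47 members above 0 h at all times mostly lay above it by small amounts, which were most alike at 96 h. Their median log2 differences were 0.22, 0.26, 0.40 and 0.32 over the 4 times. The standard deviation between models was 0.18, 0.15, 0.14 and 0.07. Single members ranged from 0.07 to 1.01 at 24 h and from 0.19 to 0.55 at 96 h. Rank 3 stood at 11482, 11397 and 11712 RPKM at 96 h, against 9432, 8708 and 9316 at 0 h, so that its groups did not overlap. Rank 31 rose after 24 h, with 1592, 1608 and 1609 RPKM at 0 h, 1695, 1757 and 1716 at 24 h, 2102, 2165 and 2053 at 48 h, 2070, 2336 and 2235 at 72 h, and 2107, 2079 and 2074 at 96 h. Its rise from 24 to 48 h was called (log2 difference 0.29, SE 0.04, limma adjusted p = 0.000269). Rank 82 made its step a day later, with a rise at 72 h over 48 h (1250, 1387 and 1293 RPKM at 72 h, against 1057, 1088 and 1006 at 48 h; log2 difference 0.32, SE 0.04, limma adjusted p = 0.000231).

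**Figure D4:**
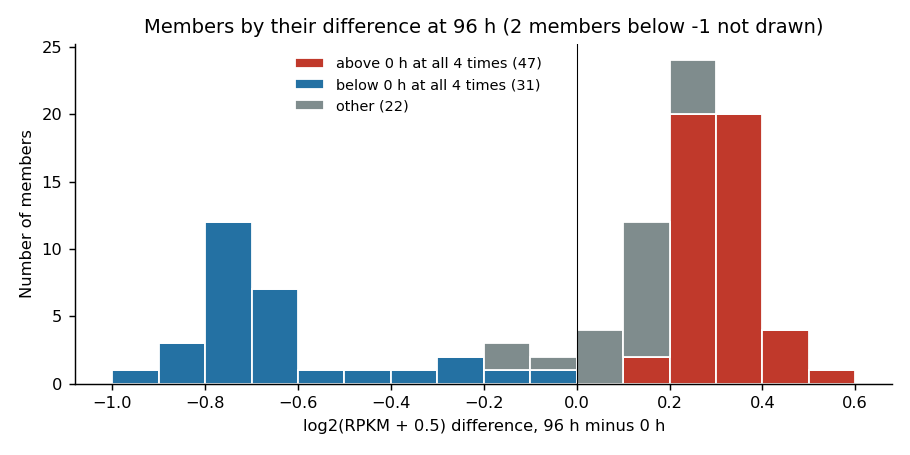
Number of members (y) by log2 difference of 96 h from 0 h (x, bins of 0.1), coloured by position against the 0 h libraries. The counts form 2 heaps, with 44 members between 0.2 and 0.4 and 19 between -0.8 and -0.6, and few members around -0.4.

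Several members that stood well above 0 h at 24 h were lower again by 96 h. Rank 40, at 1373, 1307 and 1387 RPKM at 0 h, stood at 2617, 2748 and 2829 at 24 h, 2754, 2833 and 2455 at 48 h, 2627, 2703 and 2448 at 72 h, and 1995, 1906 and 2058 at 96 h. It was the only member at least 2-fold higher than 0 h at 24 h (0.203% of models), and its libraries at 96 h lay below all others after irradiation but above those at 0 h. The fall at 96 h against 72 h was called (log2 difference -0.38, SE 0.06, limma adjusted p = 0.000937). Rank 4 stood at 7427, 6935 and 7250 RPKM at 0 h, 11627, 12761 and 12730 at 24 h, and 10333, 8922 and 10127 at 96 h. Against 24 h, it was lower at 96 h (log2 difference -0.34, SE 0.09, limma adjusted p = 0.00700). Rank 59 did likewise, at 1401, 1203 and 1339 RPKM at 96 h, against 1646, 1749 and 1770 at 24 h (log2 difference -0.39, SE 0.10, limma adjusted p = 0.00734).

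Whether members went on changing once the worms had been irradiated was tested between the irradiated groups. In limma's F test over 24, 48, 72 and 96 h, 68 of the 100 members changed (adjusted p below 0.05), beside 26.4% of the 21231 models tested and 80 of the next 100 models. By position against 0 h, these were 26 of the 47 members above it, 27 of the 31 below it and 15 of the other 22. The tested medians stayed near 0, with a median log2 difference of 96 h from 24 h of 0.02 over the members, 0.00 over all models tested and -0.19 in the next 100 models.

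Between 24 h and 96 h, 29 members rose (15.1% of models) and 31 fell (16.3% of models) at an adjusted p below 0.05 (limma). Of the next 100 models, 18 rose and 59 fell. With their many reads and small spread, small shifts of members are more easily called, so these counts do not compare sizes of change. As shares of the summed RPKM the split was 42 rises (18.2% of models) and 29 falls (12.6%), and after quantile normalization 24 rises (16.3%) and 34 falls (14.7%). Grouping by position against 0 h uses the same irradiated libraries as these contrasts, so the split of calls by position is partly fixed by the grouping and is given as a description. The group below 0 h had 26 falls among its 31 members, beside 1 rise. The group above 0 h had 17 rises and 3 falls, the falls at ranks 4, 40 and 59. Rises were modest, since only ranks 12, 39, 76 and 82 exceeded 0.3 on the log2 scale.

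The changes from one day to the next were fewer. At 48 h, 8 members were higher (6.80% of models) and 15 lower (6.28%) than at 24 h, and 14 of those 15 lay in the group below 0 h. At 72 h, 2 members, ranks 47 and 82, were higher (0.410% of models) and 9 lower (1.40%) than at 48 h. Without the first library at 72 h the number higher was 13 and without each of the others it was 1, while the number lower was 2 to 4 without any one of the 3 libraries at 48 h or without the first or second at 72 h. At 96 h, 2 members, ranks 39 and 63, were higher (1.34% of models) and 14 lower (3.60%) than at 72 h, and 8 of these 14 lay in the group above 0 h. The 2 rises became 0 without replicates 1 or 3 at 0 h, replicate 3 at 24 h, replicate 2 at 72 h or any replicate at 96 h, and 1 without replicate 2 at 0 h or replicates 1 or 2 at 24 h. The 14 falls became 23 without the first library at 72 h, 3 without the second library of that time, 8 without the last, and 6, 3 and 3 without replicates 1, 2 and 3 at 96 h, while as shares of the summed RPKM there were 6 rises (2.34% of models) and 8 falls (1.70%).

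Positions at 24 h were set beside the change from 48 h to 96 h, because the values compared share no library. The calls are not fully separate, since the fit took its spread from all 15 libraries, those at 0 and 24 h included. Against 48 h, 3 members at 96 h were higher (ranks 63, 76 and 82; 1.70% of models) and 26 were lower (5.54%) in limma. Of the next 100 models, 2 were higher and 51 lower. Of the 38 members below 0 h at 24 h, 24 fell further, 1 rose and 13 were not called, with a median log2 difference of -0.13. Of the 51 above 0 h at 24 h, 2 rose, 2 fell and 47 were not called, with a median of 0.03. The 11 that overlapped with 0 h at 24 h had a median of 0.03 and lay between -0.07 and 0.12. The direction of these calls depended on the scaling, at 22 rises (3.18% of models) and 17 falls (4.06%) as shares of the summed RPKM, and 12 rises (3.39%) and 9 falls (4.31%) after quantile normalization. The number of falls was 17 without the second library at 48 h and also without replicate 2 or 3 at 96 h. Only 4 of the 26 falls were kept under every alternative. The split of calls by position at 24 h was made in the deposited scaling only, so it carries the same dependence.

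Of the single members, SMED30014876 (rank 98, 737 bases) changed most. It stood at 866, 849 and 871 RPKM at 0 h, 372, 377 and 378 at 24 h, 24.2, 21.5 and 17.9 at 48 h, 2.07, 1.58 and 2.15 at 72 h, and 1.24, 0.921 and 1.01 at 96 h. No group overlapped with another. Its place in the order of all models was 98, 295, 4683, 16003 and 19227 over the 5 times. The log2 difference of 96 h from 24 h was -7.92 (SE 0.10, limma adjusted p = 7.94e-17), from 28, 21 and 13 reads at 96 h against 4633, 6806 and 4603 at 24 h. The 0.5 RPKM added before taking logs makes this difference smaller than that of the plain RPKM. The fit used a single spread over all times, so the SE may be too small for so few reads.

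SMED30005838 (rank 44) stood above 0 h at first and below it later. This short model of 270 bases stood at 1352, 1211 and 1293 RPKM at 0 h, 2236, 2227 and 2039 at 24 h, 1494, 1457 and 1413 at 48 h, 702, 724 and 703 at 72 h, and 382, 429 and 422 at 96 h. All 5 groups were separate, those at 24 and 48 h above 0 h and those at 72 and 96 h below it. Each daily fall was called, by -0.57 at 48 h (limma adjusted p = 6.3e-06), -1.03 at 72 h (adjusted p = 7.14e-09) and -0.79 at 96 h (adjusted p = 1.18e-07). Over the 3 days from 24 to 96 h it fell by 2.40 on the log2 scale (SE 0.05, limma adjusted p = 1.87e-14), and its mean at 96 h was 3.13-fold lower than at 0 h.

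SMED30005345 (rank 39, 374 bases) had the largest rise from 24 to 96 h. It stood at 1402, 1365 and 1392 RPKM at 0 h, 862, 888 and 915 at 24 h, 1272, 1245 and 1844 at 48 h, 1327, 1033 and 1366 at 72 h, and 1694, 1666 and 1691 at 96 h. The libraries at 24 h were the lowest of all, those at 48 and 72 h were widely spread and overlapped with 0 h, and those at 96 h lay above 0 h and close together. It was higher at 96 h than at 24 h by a log2 difference of 0.92 (SE 0.12, limma adjusted p = 2.86e-05), and higher at 48 h than at 24 h by 0.69 (SE 0.12, adjusted p = 0.00144). The rise at 96 h over 72 h had an adjusted p of 0.0438 (limma) and was lost in 10 of the 15 fits that left out a library, with a highest adjusted p of 0.219 without the second at 72 h.

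SMED30013396 (rank 76, 1413 bases) was lowest at 24 h and highest at 96 h. It stood at 994, 956 and 965 RPKM at 0 h, 891, 864 and 919 at 24 h, 1022, 1015 and 1013 at 48 h, 1001, 1096 and 1121 at 72 h, and 1155, 1132 and 1129 at 96 h. All libraries at 24 h lay below those at 0 h and all later ones above. At 96 h it was higher than at 24 h by a log2 difference of 0.35 (SE 0.04, limma adjusted p = 5.73e-06).

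**Figure D5:**
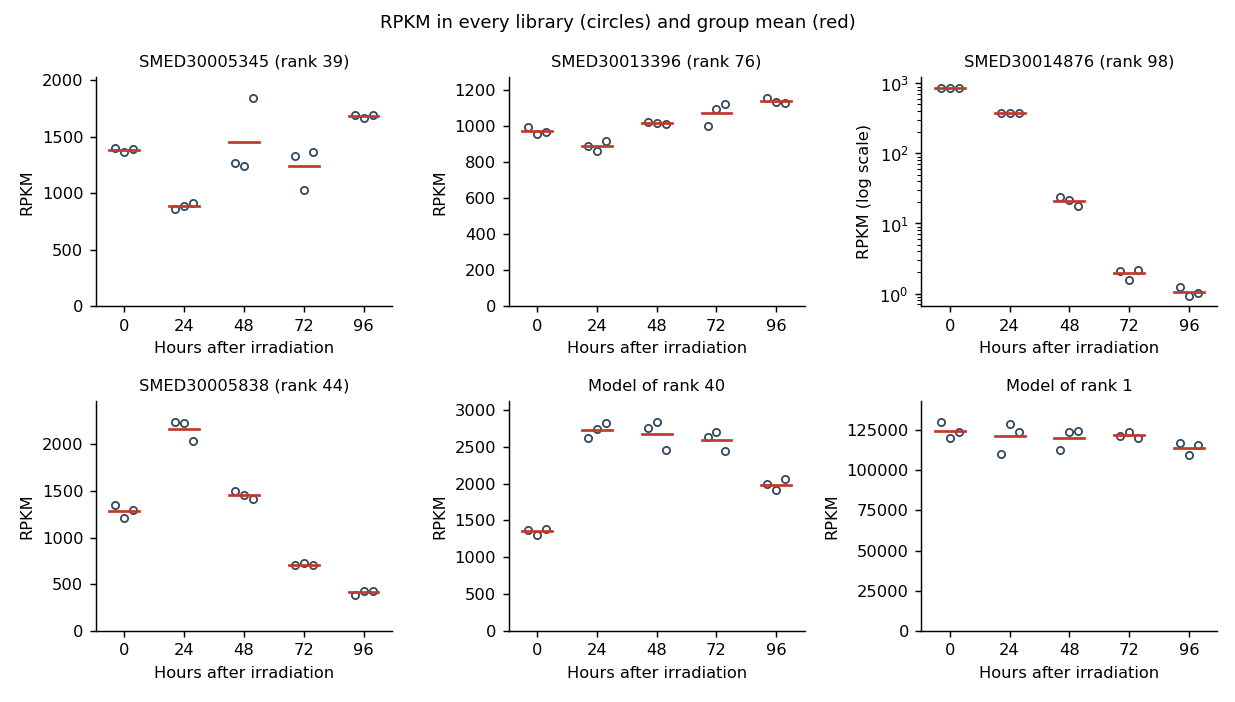
RPKM in every library (circles) and group means (red) at 0, 24, 48, 72 and 96 h for the 4 members named by ID and for ranks 40 and 1 (y from 0, except a log scale for SMED30014876). SMED30005838 falls after 24 h, SMED30005345 is lowest at 24 h, and rank 1 overlaps across groups up to 72 h.

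Of the members, 79, 78, 78 and 77 were among the 100 highest at 24, 48, 72 and 96 h. The 21 to 23 models that entered at each time had ranked no lower than 194 at 0 h. Those that left came almost all from the group below 0 h, with 20 of 21, 22 of 22, 21 of 22 and 22 of 23 over the 4 times. In place, the model of rank 98 moved furthest of those that left. The next lowest place was 165 at 24 h and 244 at 96 h. Place 244 was held by the model of rank 44. In level, the model of rank 44, which was off the list at 72 and 96 h, also dropped far. Its log2 difference from 0 h was -1.64 at 96 h. Rank 1 stayed first and rank 5 kept its place at all 5 times, while ranks 2, 3 and 4 changed places among themselves, rank 4 standing in place 2 at 24 and 48 h.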

How the data were processed

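The authors deposited RPKM values for 26671 transcript models in 15 libraries. Per the submitters' processing notes, edgeR, Bowtie and CASAVA (version 1.8.2) were used, with no role stated. The sources used here do not give the transcript set, mapping settings or strand use, so models that share or overlap in sequence may share reads. Low values were whole multiples of a step, from which lengths and whole reads were worked out (26671 models, 100%, within 0.001 reads). Reads per library ranged from 9749391 to 30707808, each 0 h library being shallower than each irradiated one. The library sizes behind the RPKM values were 0.974 to 1.027 times these reads, so they were not the plain read totals.

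Values were taken as log2(RPKM + 0.5), with models of at least 1 RPKM in at least 3 libraries tested (21231, including all 100 members). A mean per time was fitted to 15 libraries with limma 3.58.1 in R 4.3.3 (two-sided, Benjamini-Hochberg over all models tested, threshold 0.05). The fit was tested on simulated data. Tables were handled with Python 3.11.15 and pandas 2.3.3, and figures drawn with matplotlib 3.10.9.

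The members, lists and tests were chosen with earlier results of these data known. IDs were named by rule, as the 2 largest rises and 2 largest falls called at 96 h against 24 h. Since no name is paired with an ID, no gene list was tested. Alternatives covered pseudocounts, filter, scaling, replicate block, recovered reads (limma-voom) and left-out libraries.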

Additional observations from a re-analysis of the deposited data

Results flagged for a closer look

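A set of 6 members lay on opposite sides of all 0 h libraries at 24 h and at 96 h, and differed between these times in limma's direct contrast. That contrast called 15.1% of models higher at 96 h and 16.3% lower. Models outside the members were not sorted by the full rule, so the number 6 is a description only. Of the 6, only SMED30005838 was above 0 h first and below it later. Its log2 difference of 96 h from 24 h was -2.40 (limma adjusted p = 1.87e-14). The other 5 were below 0 h at 24 h and above it at 96 h. These were SMED30005345 at 0.92 (adjusted p = 2.86e-05), SMED30013396 at 0.35 (adjusted p = 5.73e-06), rank 12 at 0.31 (adjusted p = 0.0117), rank 80 at 0.21 (adjusted p = 0.000298) and rank 97 at 0.20 (adjusted p = 0.000291). For rank 12 the call was lost without the first library at 24 h (limma adjusted p = 0.0627) and also after quantile normalization. That library, at 2754 RPKM, stood below the others of its time (3166 and 3243 RPKM).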

How the results depend on the processing

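For 96 h against 24 h, the 4 members named by ID kept their direction and call under every alternative run. Their other calls did not all hold, since at 96 h against 72 h that of SMED30005345 was kept in 11 of 23 alternatives and that of SMED30014876 was lost with limma-voom, and at 96 h against 48 h that of SMED30013396 was kept in 19 of 23. Which direction held more members changed with the scaling for 96 h against 24 h, 96 h against 48 h and the positions at 24, 48 and 72 h. In all, 254 leave-one-out values and 112 others stayed within set limits, and 46 and 38 did not. The limits were 1.5 times for counts and 1 SD for shares. For the 4 members named by ID, whose values are included and all stayed, they were the same direction and call. Moved values follow, and the cause was not tested unless the alternative's construction shows it. For 48 h against 24 h, 8 higher became 5 with no filter and 13 with limma-voom. For 72 h against 48 h, 2 higher became 1 with no filter, quantile normalization or the 12 irradiated libraries alone, 4 as shares and 18 with limma-voom, and 9 lower became 4 with quantile normalization and 14 with limma-voom. For 96 h against 72 h, 2 higher became 0 with no filter or the 12 libraries alone, 6 as shares and 4 with limma-voom, and 14 lower became 9 with no filter or quantile normalization, 8 as shares or with the 12 libraries alone, and 27 with limma-voom. For 96 h against 48 h, 3 higher became 22 as shares, 12 with quantile normalization and 17 with limma-voom, and 26 lower became 17 as shares and 9 with quantile normalization. Members above 0 h fell in number to 32, 36 and 38 at 24, 48 and 72 h with quantile normalization. Over 0, 24, 48, 72 and 96 h the members' share was 28.6%, 28.2%, 28.1%, 28.9% and 28.0% of reads, and without rank 1 it was 26.6%, 27.2%, 27.6%, 28.8% and 28.4% of RPKM.

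Same-numbered libraries did not pair, since 30 correlations of their deviations ran from -0.063 to 0.110. With the replicate number as a block, 1 member was called higher at 72 h than at 48 h and 1 higher at 96 h than at 72 h, and no other count moved by over 1.5 times.

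Leaving out 1 library gave 55 to 81 calls in the F test. It gave 5 to 10 higher and 12 to 18 lower for 48 h against 24 h, 1 to 13 and 2 to 8 for 72 h against 48 h, 0 to 3 and 3 to 23 for 96 h against 72 h, 23 to 31 and 30 to 33 for 96 h against 24 h, and 1 to 7 and 17 to 28 for 96 h against 48 h. The 5 came without replicate 1 at 24 h or replicates 1 or 2 at 48 h, the 7 and 6 higher without replicates 1 and 2 at 72 h, and the 1 without replicate 1 at 48 h or 2 at 96 h. Shares ran from 37.9% to 38.3%, 37.7% to 38.6%, 38.2% to 38.7%, 39.2% to 39.6% and 38.6% to 39.1% over the 5 times. Members still among the 100 highest numbered 77 to 79, 77 to 78, 77 to 78 and 76 to 77 over 24, 48, 72 and 96 h, those above 0 h 51 to 55, 58 to 60, 58 to 59 and 61 to 63, and those below 38 to 40, 34 to 36, 32 to 34 and 34 to 35. Shorter members rest on fewer reads, and the fewest in a 0 h library were 2764.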
